A study of Mus musculus with 4 samples.

Results

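The unfolded protein response and the integrated stress response were followed through 34 genes, chosen by name from a fixed list, in a comparison of 38697 genes between Nrp1-deficient and control lung ILC2s. ILC2s, or group 2 innate lymphoid cells, are lymphocytes resident in tissues that secrete IL-5 and IL-13. The control pools (WT) came from C57BL/6 mice of genotype R5/+, and the knockout pools (KO) from C57BL/6 mice of genotype R5/+Nrp1f/f. Both genotypes carried the R5 allele at the Il5 locus, which drives Cre recombinase, and both received bleomycin, a drug that injures the lung. Deletion of the floxed Nrp1 gene is therefore limited to cells that have expressed Il5. Each genotype had 2 samples, each a pool of 3 to 4 mice. The labels read here give no age, dose or time after bleomycin.

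The values are those of the authors' deposited table, which lists for each gene its mean normalized count, the log2 fold change, the standard error (SE) of that change, and p-values before and after adjustment. Values of single libraries were not analysed here, because the columns that hold them carry codes that match no sample label, so no value per pool, spread between pools or depth per library is given. Positive log2 values mean higher in KO, on the reading that the table's name puts WT first, and Nrp1, the targeted gene, stood at -1.18 ± 0.21 (SE, adjusted p = 1.27e-04) by the authors' deposited table. Which genotype is the numerator is not stated in it, and under the opposite reading every direction given here, that of Nrp1 included, would turn. All 12 markers of ILC2s that were examined were present, from the least abundant, Il13, at a mean normalized count of 187 to Rora at 41644 in the authors' deposited table. The 34 genes all had an adjusted p, as did 19193 genes in all. The median log2 fold change was -0.25 over the 2480 genes with a mean normalized count of at least 1000 and 0.08 over all genes with an adjusted p, so each gene below is also placed against that shift, which is called centring. Of those 2480 abundant genes only 7.10% had a positive value.

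Proteins bound for secretion or for membranes fold in the endoplasmic reticulum (ER). When unfolded chains accumulate there, a set of sensors responds. IRE1 (Ern1) splices the mRNA of Xbp1, PERK (Eif2ak3) phosphorylates the initiation factor eIF2, and ATF6 is cut to release a transcription factor. Phosphorylated eIF2 lowers translation in general while favouring that of ATF4, and GCN2 (Eif2ak4) reaches the same point from amino acid shortage, which is why this shared branch is called the integrated stress response. Targets of these factors include ER chaperones, the machinery that exports misfolded chains for degradation (ER-associated degradation, ERAD), and genes of amino acid supply and cell death. A gene's total mRNA does not report the splicing of Xbp1 or the cleavage of ATF6, so neither was measured here.

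None of the 34 genes passed the test at an adjusted p under 0.05 in either direction in the authors' deposited table. Over all 19193 genes 0.453% were called higher and 0.099% lower in KO, so a count of 0 among 34 genes lies near the background. At an adjusted p under 0.1 the counts were again 0, against 1.39% called higher and 0.208% called lower over all genes. At an unadjusted p under 0.05, 2 of the 34 genes were higher, Herpud1 and Dnajb9, and 6 were lower, Ern1, Hyou1, Pdia3, Pdia4, Pdia6 and Canx, where 9.62% of all genes were higher and 3.95% lower. Those shares differ with abundance: of the 2480 abundant genes 0.524% were higher and 21.6% lower at that threshold. Among the 19 members of like abundance, 2 were higher and 5 lower (26.3%), so the lower count lies near the share of abundant genes at large. After centring, 1 gene, Herpud1, passed at an adjusted p under 0.05 as higher and 0 as lower, against 1.17% and 0.0104% of all genes. Of the abundant genes 0.484% then passed as higher, beside 1 of the 19 abundant members (5.26%), a count too small to set apart. Of the 34 genes 11 had a positive and 23 a negative log2 value, with a median of -0.25, and 15 lay above the running median of genes of like abundance.

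**Figure D1:**
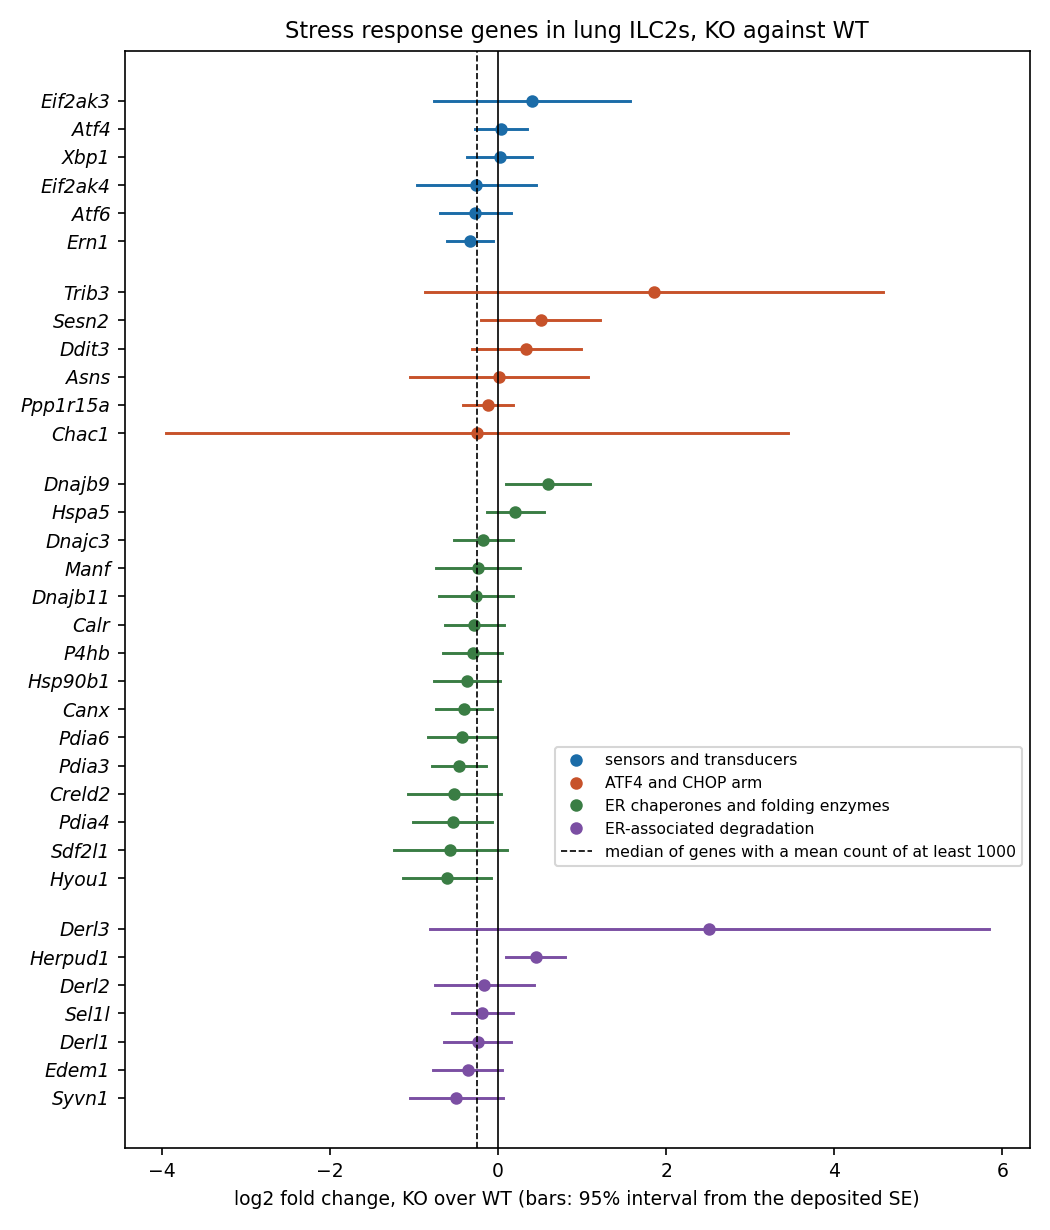
Log2 fold change of KO over WT for each of the 34 genes, grouped by role, with bars for the 95% interval computed from the deposited standard error and a dashed line at the median of abundant genes (-0.25). Herpud1 and Dnajb9 are the genes whose interval lies wholly above 0, and the bars of Derl3, Trib3 and Chac1 span several log2 units.

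The position of each gene against abundance matters here because the fold changes of the whole table follow the mean count. Genes tested with a mean normalized count under 100 had a median log2 value of 1.10, those from 100 to 1000 a median of -0.15, and the more abundant ones -0.25. Of the 34 genes, 19 had a mean count of at least 1000, 10 lay between 100 and 1000, and 5 were under 100 (Eif2ak3, Asns, Trib3, Chac1 and Derl3). Among the 19 abundant genes 5 had positive values: Hspa5, Dnajb9, Herpud1, Xbp1 and Atf4. That is 26.3%, beside 7.10% of all abundant genes, but Xbp1 and Atf4 stood at only 0.02 and 0.04. Above the running median of genes of like abundance lay 9 of the 19 (47.4%), beside 50.1% of all abundant genes. The median of the 19 was -0.26, beside -0.25. Among the 10 of middle abundance 2 were positive, Ddit3 and Sesn2, which is 20.0% beside 30.2%.

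**Figure D2:**
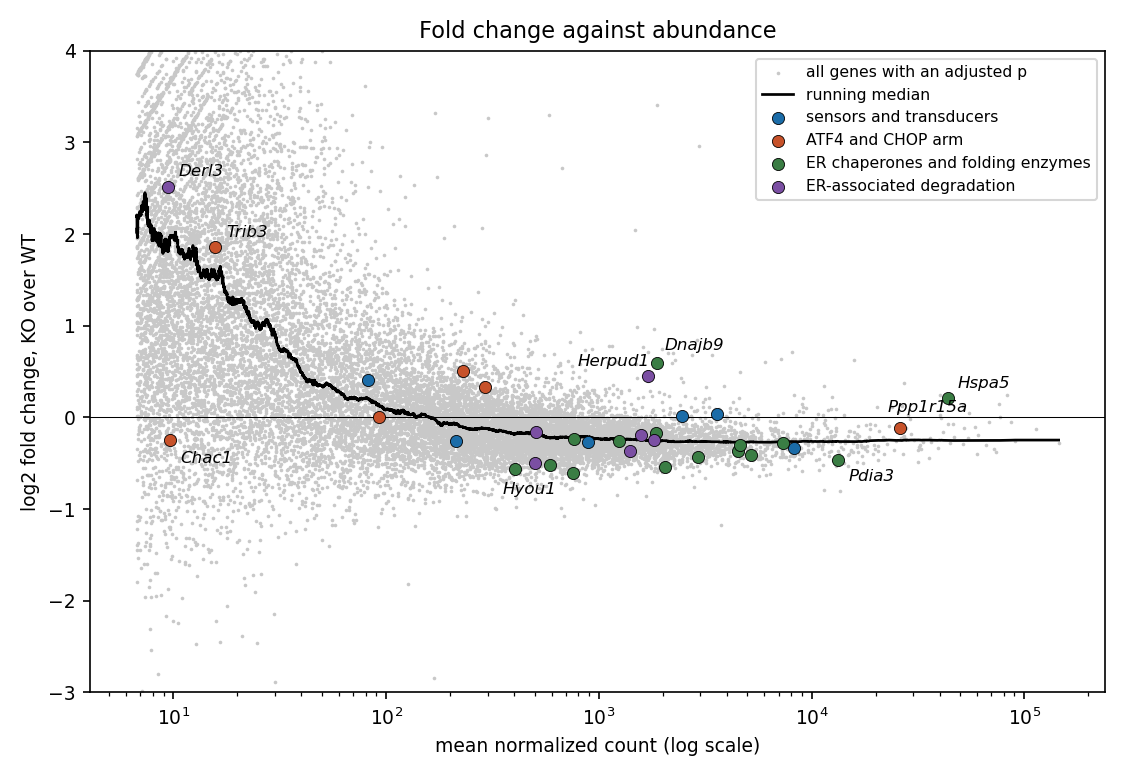
Log2 fold change of KO over WT against the mean normalized count (log scale) for all genes with an adjusted p (grey), with their running median (line) and the 34 genes coloured by role. Of the genes with an adjusted p, 946 fall outside the plotted range. Herpud1, Dnajb9 and Hspa5 lie above the line at high abundance, Hyou1 and Pdia3 lie below it, and Derl3 and Trib3 lie where the line itself is above 1.

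Transcript levels differed widely between the genes. Levels are given as the normalized count per kb of exon, with a mean for each genotype implied by the deposited mean and fold change. Hspa5, which encodes the ER chaperone BiP, stood highest at 9582 in WT and 11057 in KO per kb of exon. Ppp1r15a (GADD34), which recruits a phosphatase to eIF2 and so restores translation, was second at 9234 in WT and 8511 in KO per kb. Next came the folding enzyme Pdia3 at 4908 in WT and 3560 in KO per kb. Calr, P4hb and Atf4 followed, with means over both genotypes of 2562, 1606 and 1519.7 per kb. At the other end, Eif2ak3, Trib3, Chac1 and Derl3 had means of 13.7, 7.42, 5.89 and 4.75 per kb. Trib3, Chac1 and Derl3 also had the widest standard errors, each above 1 on the log2 scale, so even large fold changes are not resolved for them.

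**Figure D3:**
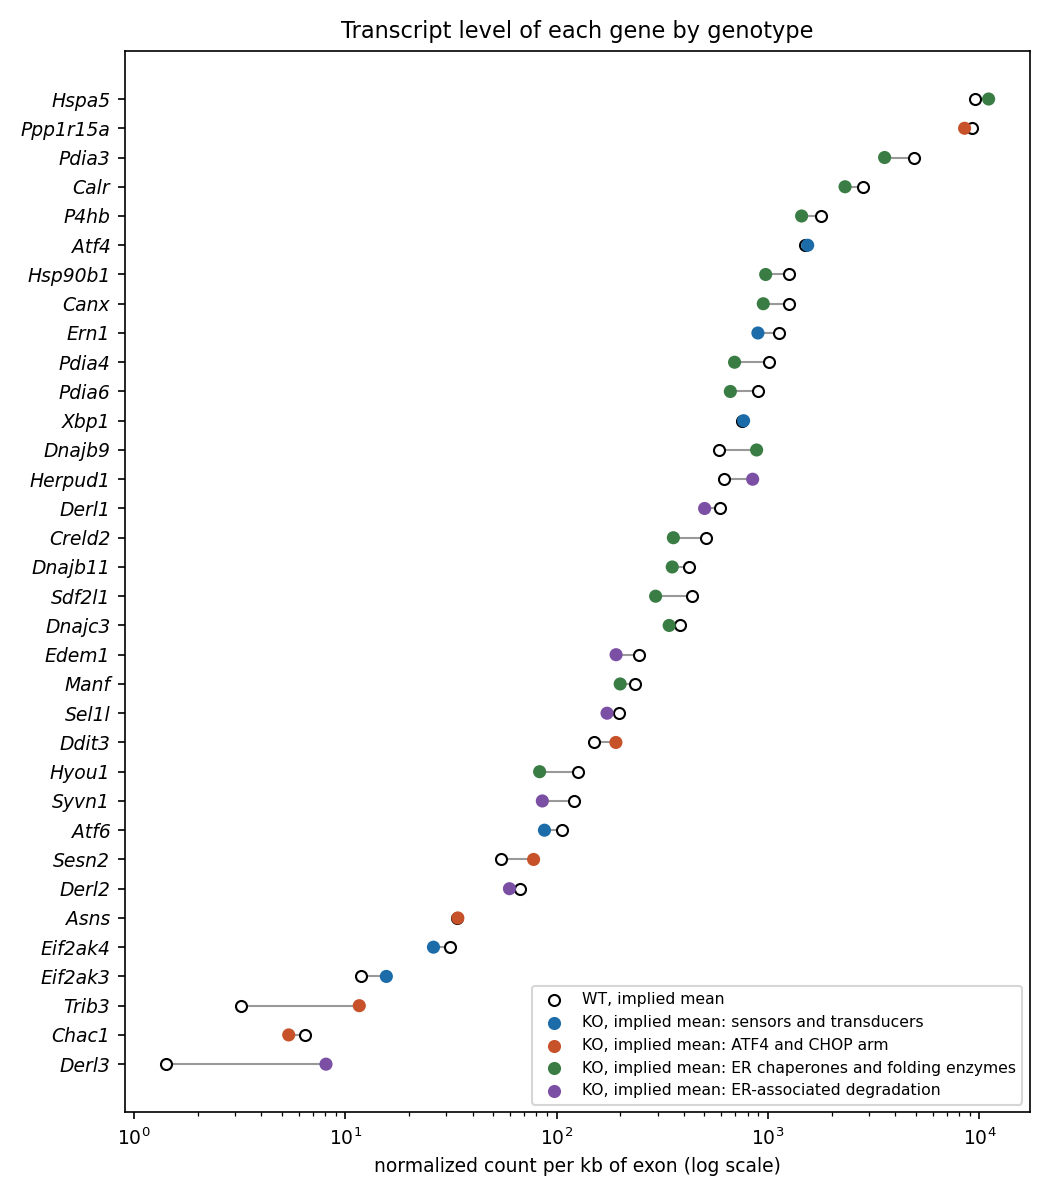
Normalized count per kb of exon (log scale) implied for WT (open circles) and KO (filled circles, coloured by role), with genes ordered by their mean. Hspa5 and Ppp1r15a lie between 8511 and 11057 per kb in both genotypes, and the gap between genotypes is widest for Derl3 and Trib3, which have the lowest counts along with Chac1.

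Among the 6 sensors and transducers, 0 passed in either direction in the authors' deposited table, 3 had positive values, and the median was -0.12. Ern1 (ENSMUSG00000020715, chromosome 11, 106394650 to 106487852, mm10), the IRE1 kinase and nuclease, stood at -0.33 ± 0.14 (SE, adjusted p = 0.245) by the authors' deposited table. Its implied means were 9198 normalized counts in WT and 7315 in KO, and centred on abundant genes the difference was -0.08 (adjusted p = 0.927). It was by far the most abundant of the 3 ER stress sensors, with 1010.2 normalized counts per kb of exon, beside 96.4 for Atf6 and 13.7 for Eif2ak3. Atf6 stood at -0.27 ± 0.22 (adjusted p = 0.616) by the authors' deposited table, and Eif2ak3, encoding PERK, at 0.40 ± 0.60 (adjusted p = 0.819). Eif2ak4, the amino acid sensor GCN2, stood at -0.26 ± 0.36 (adjusted p = 0.809) by the authors' deposited table.

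The mRNAs of the transcription factors themselves were nearly level as deposited. Xbp1 had implied means of 2455 in WT and 2487 in KO, and its log2 value was 0.02 ± 0.20 (adjusted p = 0.982) by the authors' deposited table. The 95% interval of its KO over WT ratio ran from 0.773 to 1.33. Atf4 had implied means of 3537 in WT and 3630 in KO, with a log2 value of 0.04 ± 0.16 (adjusted p = 0.949) by the authors' deposited table and a ratio between 0.828 and 1.27. Relative to abundant genes, Xbp1 stood at 0.27 and Atf4 at 0.29 on the log2 scale, with adjusted p of 0.651 and 0.423. Changes larger than these ratios in total Xbp1 or Atf4 mRNA thus lie outside the intervals as deposited, while smaller ones were not resolved.

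In the ATF4 and CHOP arm, 0 of 6 genes passed in either direction in the authors' deposited table, 4 had positive values, and the median was 0.17. Ppp1r15a stood at -0.12 ± 0.15 (adjusted p = 0.787) by the authors' deposited table, and at 0.13 when centred, so its sign depends on the scaling. Ddit3, which encodes the pro-apoptotic factor CHOP, had implied means of 258 in WT and 326 in KO, a log2 value of 0.34 ± 0.33 (adjusted p = 0.700) by the authors' deposited table. Sesn2, a stress-induced inhibitor of mTORC1 signalling, stood at 0.51 ± 0.36 (adjusted p = 0.566) by the authors' deposited table, with implied means of 190.0 in WT and 269.9 in KO. Asns, which makes asparagine and is a classical target of ATF4, was level at 0.01 ± 0.54 (adjusted p = 0.997) by the authors' deposited table, and its ratio could lie anywhere from 0.482 to 2.10. Trib3, a pseudokinase induced by ATF4 and CHOP, stood at 1.86 ± 1.39 (adjusted p = 0.588) by the authors' deposited table, on implied means of 6.82 and 24.7 normalized counts. The glutathione-degrading enzyme Chac1 stood at -0.25 ± 1.89 (adjusted p = 0.973) on implied means of 10.5 and 8.82 in the authors' deposited table.

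The promoters of Asns, Chac1, Trib3 and Herpud1 share the short element through which ATF4, paired with a C/EBP factor, is known to act. The element was searched as TGATGNAA on both strands in windows from 250 bases before to 50 bases after the RefSeq gene start (GRCm38.p6), which were matched for 30 of the 34 genes. It was found in 4 of the 30 genes (13.3%), beside 4.51% of all 27025 genes with a window. The list was chosen by name and holds known targets of ATF4, so this share is background and not a result of the comparison. The stretches are shown because they mark which of the genes carry the element near the start site, and because Herpud1 carries it although its group is ERAD. Capitals mark the element, and each stretch reads 5′ to 3′ along the gene's strand.

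Asns (chr6:7693215-7693242, minus strand): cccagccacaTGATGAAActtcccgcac

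Chac1 (chr2:119351039-119351066, plus strand): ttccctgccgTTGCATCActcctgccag

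Trib3 (chr2:152344029-152344056, minus strand): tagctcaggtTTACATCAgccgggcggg

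Herpud1 (chr8:94386307-94386334, plus strand): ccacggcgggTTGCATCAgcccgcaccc

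The log2 values of these 4 genes ran from -0.25 for Chac1 to 1.86 for Trib3, and at an unadjusted p under 0.05 the 1 that was higher was Herpud1. A match is a description of the letters and does not show that a factor binds there.

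The 15 ER chaperones and folding enzymes held the most negative values of the 4 roles. None passed in either direction in the authors' deposited table, 13 had negative values, and the median was -0.37, beside -0.25 for all abundant genes. Centred on abundant genes the median was -0.12, and 3 of the 15 lay above the running median: Hspa5, Dnajb9 and Dnajc3. At an unadjusted p under 0.05, 5 were lower (33.3%) and 1 was higher (6.67%), beside 21.6% lower and 0.524% higher among all abundant genes. Sdf2l1, Creld2, Manf and Hyou1, the last of them among the 5 lower, had mean counts from 100 to 1000. In that range 3.20% of all genes were lower and 1.19% higher. The summed implied means of the 15 genes were 93584 normalized counts in WT and 88499 in KO, of which Hspa5 alone made 40524 and 46762. The KO over WT ratio of these sums was 0.946, beside 0.863 for all abundant genes and 0.887 for all genes.

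Hspa5 (ENSMUSG00000026864, chromosome 2, 34771970 to 34777547, mm10) is the ER member of the HSP70 family, holds the sensors inactive in unstressed cells and is the classical target of ATF6. It stood at 0.21 ± 0.17 (adjusted p = 0.638) by the authors' deposited table, a KO over WT ratio of 1.15 with an interval of 0.912 to 1.46. Its centred value was 0.46 (adjusted p = 0.147). Dnajb9 (ENSMUSG00000014905, chromosome 12, 44205559 to 44210326, mm10), also called ERdj4, is a J-domain partner of BiP that brings it to IRE1 and is a target of spliced XBP1. Its implied means were 1488 in WT and 2249 in KO, and it stood at 0.60 ± 0.25 (adjusted p = 0.245) by the authors' deposited table, the highest value among the 19 abundant genes. Its centred value was 0.85 with an adjusted p of 0.0555, just short of the threshold. Dnajb11, another J-domain partner of BiP, stood at -0.26 ± 0.22 (adjusted p = 0.656) by the authors' deposited table, so the log2 values of the 2 co-chaperones were 0.85 apart, a ratio of 1.81 that no rescaling of the libraries alters. Dnajc3, a co-chaperone that inhibits PERK, stood at -0.17 ± 0.18 (adjusted p = 0.722) by the authors' deposited table and at 0.08 when centred.

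The HSP70- and HSP90-type partners of BiP lay lower. Hyou1 (GRP170), which exchanges the nucleotide of BiP, had the lowest value of all 34 genes, -0.61 ± 0.27 (adjusted p = 0.263), by the authors' deposited table. Its implied means were 914 in WT and 599.7 in KO, and centred it stood at -0.36 (adjusted p = 0.661). Hsp90b1 (GRP94), the HSP90 of the ER, stood at -0.37 ± 0.20 (adjusted p = 0.410) by the authors' deposited table. Hspa5 thus lay 0.81 above Hyou1 and 0.58 above Hsp90b1 on the log2 scale, although all 3 are classical targets of the same response. Neither these differences nor that of Dnajb9 from Dnajb11 were tested, because errors of genes in the same libraries may be correlated.

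The 4 protein disulfide isomerases among the 34 genes, which form and shuffle disulfide bonds, were all negative. Of all abundant genes only 7.10% were positive. Pdia3 (ENSMUSG00000027248, chromosome 2, 121413775 to 121438687, mm10), the isomerase that works with calnexin and calreticulin, stood at -0.46 ± 0.16 in the authors' deposited table. Its unadjusted p of 0.00499 was the smallest of the 34 genes, and its adjusted p was 0.153. Implied means were 15405 in WT and 11174 in KO, and centred on abundant genes the value was -0.21 (adjusted p = 0.686). Pdia4 stood at -0.54 ± 0.24 (adjusted p = 0.268), Pdia6 at -0.43 ± 0.21 (adjusted p = 0.333) and P4hb at -0.30 ± 0.18 (adjusted p = 0.466) by the authors' deposited table. The lectin chaperones, which hold glycoproteins during folding, were close to them, with Canx at -0.41 ± 0.17 (adjusted p = 0.227) and Calr at -0.28 ± 0.18 (adjusted p = 0.498) by the authors' deposited table. After centring, the 4 isomerases lay between -0.29 and -0.05, and Canx and Calr at -0.16 and -0.03. All 6 thus stayed negative relative to abundant genes, and none passed.

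Of the smaller induced factors, Sdf2l1, which keeps substrates soluble together with BiP and Dnajb11, stood at -0.57 ± 0.34 (adjusted p = 0.467) by the authors' deposited table. Creld2, a secreted ER stress protein, stood at -0.52 ± 0.28 (adjusted p = 0.414) and Manf, a secreted factor that binds BiP, at -0.24 ± 0.26 (adjusted p = 0.735) by the authors' deposited table. Implied means were 482 and 325 for Sdf2l1, 697 and 487 for Creld2, and 829 and 703 for Manf, in WT and KO. All 3 were below 0 as deposited, and Manf was at 0.01 when centred.

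Many ER chaperone promoters share the ER stress element (ERSE), CCAAT followed after 9 bases by CCACG, to which ATF6 binds with NF-Y. This element was defined from promoters such as that of Hspa5, so its presence here is background and not a result of the comparison. Searched on both strands in the same windows, it was found in 9 of the 30 genes (30.0%), beside 37 of all 27025 genes (0.137%). Its shorter form, ERSE-II, ATTGG followed after 1 base by CCACG, was found in 2 of the 30 genes (6.67%) and in 12 genes in all (0.0444%). The core of the XBP1-binding element, TGACGTGG, was found in 0 of the 30 genes and in 0.714% of all genes. The CCACG of the ERSE, read on the opposite strand as CGTGG, is also the end of that core. The stretches are shown because genes that carry the same element took values on both sides of 0. The positive values among the ERSE genes were not resolved from 0. Capitals mark the paired boxes, or the whole element for ERSE-II, and a match on the opposite strand reads CGTGG followed by ATTGG.

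Hspa5 (chr2:34772015-34772053, plus strand): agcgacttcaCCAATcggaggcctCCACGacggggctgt

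Hsp90b1, nearer match (chr10:86705523-86705561, minus strand): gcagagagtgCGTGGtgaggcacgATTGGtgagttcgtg

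Hsp90b1, farther match (chr10:86705628-86705666, minus strand): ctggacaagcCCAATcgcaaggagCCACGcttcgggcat

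Pdia6 (chr12:17266481-17266519, plus strand): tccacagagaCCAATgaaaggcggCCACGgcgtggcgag

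Canx (chr11:50325790-50325828, minus strand): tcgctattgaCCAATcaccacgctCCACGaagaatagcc

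Calr (chr8:84847065-84847103, minus strand): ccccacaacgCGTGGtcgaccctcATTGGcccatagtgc

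Creld2 (chr15:88819510-88819548, plus strand): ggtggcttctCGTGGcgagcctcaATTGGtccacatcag

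Dnajc3 (chr14:118937817-118937855, plus strand): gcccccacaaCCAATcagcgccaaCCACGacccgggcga

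Syvn1 (chr19:6046522-6046560, plus strand): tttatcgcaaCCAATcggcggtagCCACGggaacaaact

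Derl3 (chr10:75893232-75893270, plus strand): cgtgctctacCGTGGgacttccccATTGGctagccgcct

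Herpud1, ERSE-II (chr8:94386367-94386397, plus strand): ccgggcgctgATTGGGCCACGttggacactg

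Dnajb11, ERSE-II (chr16:22857842-22857872, plus strand): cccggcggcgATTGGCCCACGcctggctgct

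The 9 genes with an ERSE had a median log2 value of -0.37, with 2 positive (Hspa5 and Derl3) and 7 negative, and a range from -0.52 for Creld2 to 2.52 for Derl3. The 2 genes with an ERSE-II lay apart, Herpud1 at 0.45 and Dnajb11 at -0.26. The 19 genes with a window and neither element had a median of -0.16, with 8 positive and 11 negative. These are descriptions over few genes. At an unadjusted p under 0.05, 0 of the 9 ERSE genes were higher and 2 were lower, Pdia6 and Canx. Of all abundant genes 21.6% were lower at that threshold. The intervals of the 2 positive ERSE genes included 0, from -0.13 to 0.55 for Hspa5 and from -0.81 to 5.84 for Derl3. The running median at the abundance of Derl3 was 1.85. Opposite directions among the ERSE genes were therefore not resolved.

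**Figure D4:**
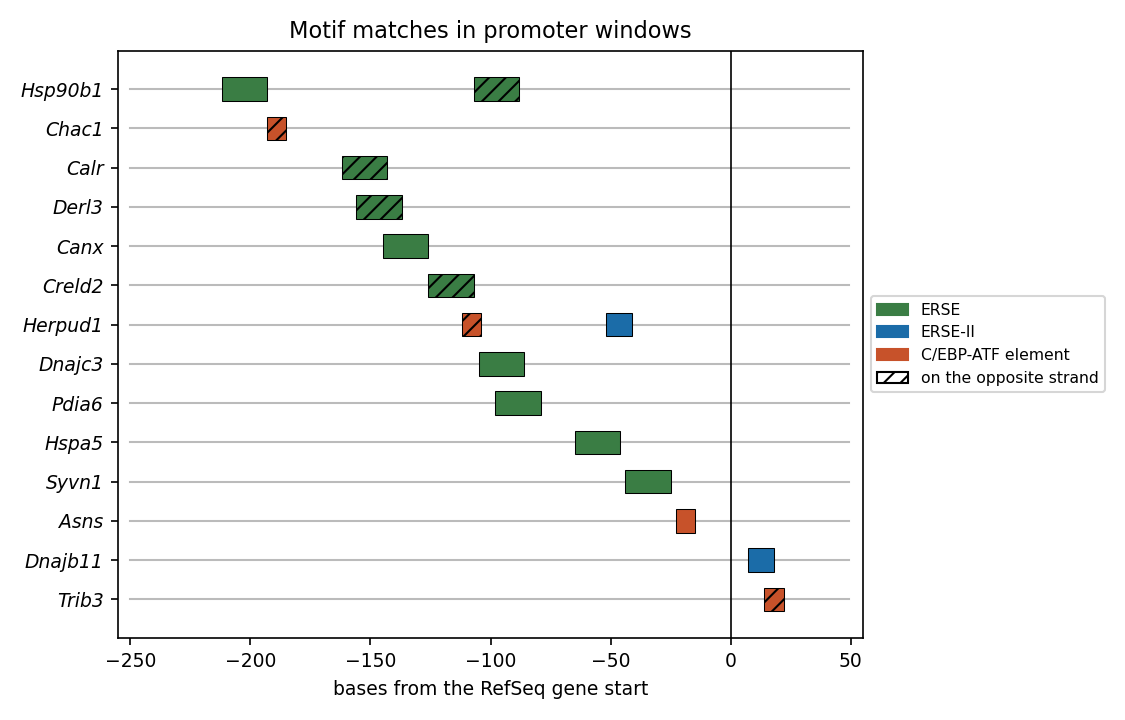
Position of each motif match in bases from the RefSeq gene start, for the 14 genes with at least 1 match among the 34, with hatching for matches on the opposite strand. Hsp90b1 holds 2 ERSE matches, and Herpud1 holds an ERSE-II 52 bases and a C/EBP-ATF element 112 bases upstream of its start.

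Among the 7 ERAD genes 0 passed in either direction in the authors' deposited table, 2 were positive, and the median was -0.19. Herpud1 (ENSMUSG00000031770, chromosome 8, 94386438 to 94395377, mm10) encodes HERP, a short-lived membrane protein that assembles the export complex around the ligase HRD1 and is among the most strongly ER stress-induced genes. Its implied means were 1446 in WT and 1972 in KO. It stood at 0.45 ± 0.18 (unadjusted p = 0.0122, adjusted p = 0.205) by the authors' deposited table, a ratio of 1.36 with an interval of 1.07 to 1.74. Centred on abundant genes it stood at 0.70 with an adjusted p of 0.0230, the 1 call among the 34 genes under that scaling. The KO over WT ratio of Herpud1 thus lay above the median ratio of abundant genes, while its difference from a ratio of 1 did not pass as deposited.

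The windows of Hspa5 and Herpud1 are given whole, because these are the most abundant of the 34 genes and the 1 that passed when centred, and because the latter holds both an ERSE-II and a C/EBP-ATF element. Capitals mark the matches.

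Hspa5 (chr2:34771840-34772139, plus strand): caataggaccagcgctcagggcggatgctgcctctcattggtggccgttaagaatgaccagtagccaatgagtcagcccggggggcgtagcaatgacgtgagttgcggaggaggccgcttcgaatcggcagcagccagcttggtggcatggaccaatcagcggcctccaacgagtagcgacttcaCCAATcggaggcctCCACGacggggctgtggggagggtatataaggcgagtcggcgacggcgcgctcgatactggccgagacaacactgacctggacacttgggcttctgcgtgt

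Herpud1 (chr8:94386179-94386478, plus strand): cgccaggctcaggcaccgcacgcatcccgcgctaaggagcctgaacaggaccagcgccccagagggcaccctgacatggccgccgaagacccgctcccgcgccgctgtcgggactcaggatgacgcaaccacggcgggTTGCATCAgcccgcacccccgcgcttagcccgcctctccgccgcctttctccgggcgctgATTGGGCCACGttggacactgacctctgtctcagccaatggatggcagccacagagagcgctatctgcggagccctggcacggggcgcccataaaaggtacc

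The partners of Herpud1 in the same complex did not share its value. Syvn1, the ubiquitin ligase HRD1 itself, stood at -0.50 ± 0.28 (adjusted p = 0.440) by the authors' deposited table, with implied means of 585 in WT and 415 in KO. Sel1l, its adaptor, stood at -0.19 ± 0.19 (adjusted p = 0.704), and Edem1, a lectin that marks misfolded glycoproteins, at -0.36 ± 0.21 (adjusted p = 0.451) by the authors' deposited table. The derlins, membrane proteins of the export channel, stood at -0.24 ± 0.20 for Derl1 and -0.16 ± 0.30 for Derl2 (adjusted p = 0.634 and 0.860) by the authors' deposited table. Herpud1 and Syvn1, the lowest ERAD value, were 0.94 apart on the log2 scale, a ratio of 1.92 that no rescaling of the libraries alters. With the running median of genes of like abundance removed they stood at 0.70 and -0.31. This difference was not tested. After centring, Sel1l, Derl1 and Derl2 turned positive, at 0.06, 0.01 and 0.09.

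Derl3, the derlin of highly secretory cells, had the highest log2 value of the 34 genes, 2.52 ± 1.70 (adjusted p = 0.533), by the authors' deposited table. It rested on implied means of 2.82 in WT and 16.1 in KO, its interval ran from -0.81 to 5.84, and the running median of genes of its abundance was 1.85. Plasma cells express Derl3 strongly. Of 12 markers of B and plasma cells, 10 were positive, with a median of 1.08, 0 passed and none was at 0. Their summed implied means were 7375 in WT and 8165 in KO. Their median mean count was 52.9, and tested genes under 100 were 81.8% positive with a median of 1.10. Of the 12, 10 lay above the running median of genes of like abundance. The plasma cell gene Mzb1, chosen after its value was seen, stood at 2.08 ± 1.08 (adjusted p = 0.382), and the most abundant marker, Ighm, at -0.51 ± 0.18 (adjusted p = 0.141) by the authors' deposited table. The part of such cells in the value of Derl3 was not tested.

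Most markers of other lung cells had positive values as well, though 0 passed. Summed implied means in WT and KO were 8639 and 14400.1 for 8 epithelial markers, of which 7 were positive. They were 8878 and 10025 for 7 macrophage markers, all positive, and 3812 and 6648 for 5 fibroblast markers, all positive. The macrophage markers had a median mean count of 67.9, and 81.8% of tested genes under 100 were positive. Above the running median of genes of like abundance lay 8 epithelial, 5 macrophage and 5 fibroblast markers. The most abundant markers were Sftpc (0.60 ± 1.44), Lyz2 (0.14 ± 0.20) and Col3a1 (0.70 ± 1.22), adjusted p of 0.897, 0.802 and 0.849, by the authors' deposited table. The 12 ILC2 markers were all negative, with summed implied means of 192033 and 159816 and a median of -0.33. Of all genes with a mean count of at least 1000, 7.10% were positive, and their median was -0.25. Above the running median lay 4 of the 12 ILC2 markers. The chaperones and their regulators are expressed in ILC2s and in all of these other cells. In bulk RNA fewer cells of a type cannot be told apart from less RNA per cell. The part of other cells in the values of the 34 genes was not tested.

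A further 93 genes of the same pathways were read from a list chosen by function. Of the 91 with an adjusted p, 0 passed in either direction in the authors' deposited table. Of these 91, 18 were positive and 73 negative, the median was -0.20, and 49 lay above the running median of genes of like abundance. When centred, 1 of the 91 (1.10%) passed as higher, against 1.17% of all genes. The share was 0.484% of genes with a mean count of at least 1000 and 0.267% of those from 100 to 1000. A count of 1 is too small to set apart from these shares. At an adjusted p under 0.1 as deposited 2 were lower, against 0.208% of all genes and 1.29% of the abundant ones. The gene that passed when centred was Atf3, a transcription factor of the integrated stress response that is also an immediate-early gene. Atf3 had implied means of 12486 in WT and 19206 in KO and stood at 0.62 ± 0.20 (adjusted p = 0.110) by the authors' deposited table, and at 0.87 when centred (adjusted p = 0.0100). Its window was searched after this value was seen, and it holds a C/EBP-ATF element upstream of the start, 110 bases away. Matches in the windows of the other companion genes were not read. Among the 34 genes the element stands in Herpud1 (0.45), Trib3 (1.86), Asns (0.01) and Chac1 (-0.25), with log2 values in brackets.

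Atf3 (chr1:191183426-191183453, minus strand): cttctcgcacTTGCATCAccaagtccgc

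The amino acid and stress targets of ATF4, Atf3 included, took values on both sides of 0. Of 19 with an adjusted p, 8 were positive and the median was -0.11, and the other two of the list, Atf5 and Fgf21, had no adjusted p. In the eIF2 and eIF2B machinery 12 of 13 were negative with a median of -0.23, and Gcn1l1, the activator of GCN2, had both the smallest p and the highest mean count of its list, at -0.42 ± 0.18 (adjusted p = 0.249) by the authors' deposited table. In ER translocation and glycosylation, the step that brings new chains into the ER, 18 of 19 were negative with a median of -0.23. Of all genes with a mean count of at least 1000, 7.10% were positive, and of those from 100 to 1000, 30.2%. Above the running median of genes of like abundance lay 12 of the 19 ATF4 targets. So did 8 of the 13 eIF2 and eIF2B genes and 11 of the 19 translocation and glycosylation genes. The signal peptidase subunit Spcs3 stood at -0.52 ± 0.15 (adjusted p = 0.0583) and the oligosaccharyltransferase subunit Rpn2 at -0.53 ± 0.16 (adjusted p = 0.0753) by the authors' deposited table. These are the 2 genes under 0.1, and centred they stood at -0.27 and -0.28 (adjusted p of 0.416 and 0.447); Rpn2 was named after its value was seen.

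Other ER folding factors were negative in 17 of 22 cases with a median of -0.26. Ero1l, the oxidase that recharges the disulfide isomerases, stood at -0.29 ± 0.17 (adjusted p = 0.451) and the thioredoxin-domain protein Txndc11 at -0.61 ± 0.25 (adjusted p = 0.217) by the authors' deposited table. Other ERAD genes were negative in 15 of 18 cases with a median of -0.13, with Selk at -0.09 ± 0.18 (adjusted p = 0.871) and Aup1 at -0.39 ± 0.17 (adjusted p = 0.270) by the authors' deposited table. Above the running median of genes of like abundance lay 7 of the 22 folding factors and 11 of the 18 ERAD genes. As deposited, 0 genes of the 5 companion lists passed in either direction, and the 5 medians lay between -0.26 and -0.11.

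**Figure D5:**
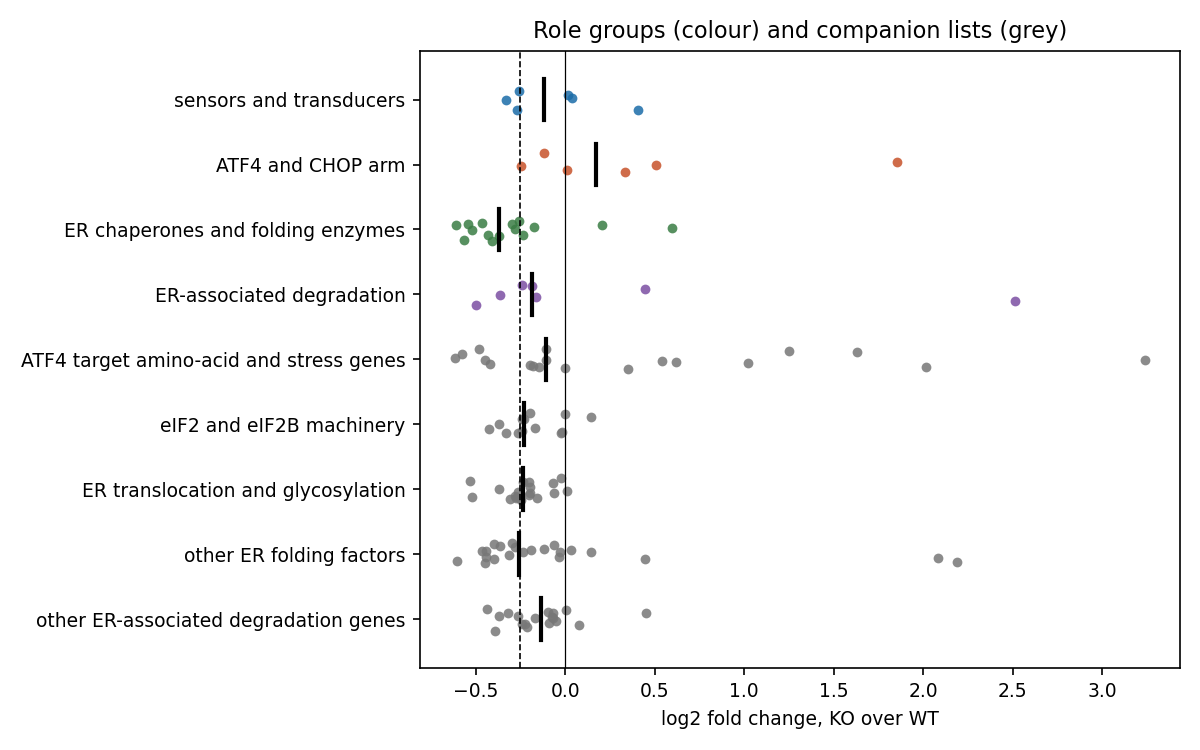
Log2 fold change of KO over WT for each gene of the 4 role groups (colour) and the 5 companion lists (grey), with a short black bar at each median and a dashed line at the median of abundant genes (-0.25). The chaperone group has the lowest median (-0.37) and the ATF4 and CHOP arm the highest (0.17).

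Overlapping transcripts limit some of these values. Exonic bases of 11 of the 34 genes also belong to another annotated gene, and the library kits are not described as keeping strand, so reads there cannot be assigned with certainty. By share of exons the largest overlap is that of Hsp90b1 with the pseudogene 1810014B01Rik on the opposite strand, 415 bases or 10.3% of its exons, where the pseudogene had a mean count of 29.4 in the authors' deposited table. By length it is that of Eif2ak3 with Gm43292 on the opposite strand, 485 bases or 8.05% of its exons. Ddit3 shares 105 bases (6.13%) on its own strand with another annotated gene of the same name, and 68 bases (3.97%) with Mars on the opposite strand. Hspa5, Dnajc3, Herpud1, Xbp1 and Atf4 share none.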

How the data were processed

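RNA from pools of 3 to 4 mice was made into full-length cDNA with the SMART-Seq HT kit, per the labels' protocols. HISAT2, Cufflinks and mm10 are named, without roles, in the submitters' processing notes. No source used here names the counter or annotation release. The deposited columns bear, per the file headers, the names that DESeq2 writes. They hold a mean normalized count, which is a signal averaged over libraries, and a log2 fold change and standard error, both deposited on a log2 scale. A test statistic, deposited as a score, and the deposited p-value before and after adjustment follow. The 8 columns of values per library match no sample label and were not used.

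The members, lists and alternatives were chosen with earlier results of these data known. Named genes were Nrp1, all 34 members, in each companion list those past the test, the most abundant and the one of smallest p, and in each marker list the most abundant. Il13, Mzb1 and Rpn2 fall outside this rule and were chosen after their values were seen. The planned count of active-site and retrieval motifs in proteins was not run.

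The sign was turned so that positive means higher in KO. Intervals are the log2 value ± 1.96 standard errors at 95%. Genotype means assume that both genotypes weigh equally in the deposited mean. Centring added 0.25 to each log2 value, the p came from the normal distribution, and Benjamini-Hochberg adjustment ran over 19193 genes. The running median used 501 genes ordered by mean count. Functions were tested on simulated data. Exon lengths came from GENCODE M21 and promoter windows from RefSeq (GRCm38.p6), both of the same build as mm10. Atf6, Hyou1, Manf and Derl1 were not matched to a window. Computations used Python 3.11.15, numpy 2.4.6, pandas 2.3.3 and scipy 1.17.1.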

Additional observations from a re-analysis of the deposited data

How the results depend on the processing

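Counts of the 34 genes called were 0 higher and 0 lower as deposited, without a filter, above a mean count of 50, over coding genes, and with 0.1 as the threshold. Centred on abundant genes, 1 of the 34 and 1 of the companion genes were higher (Herpud1, at 0.70, and Atf3), and at an adjusted p under 0.1 2 companion genes were lower. Centring turned the sign of Chac1 (0.0032), Ppp1r15a (0.13), Dnajc3 (0.078), Manf (0.014), Sel1l (0.065), Derl1 (0.0080) and Derl2 (0.090), none of which passed. It left the direction and the absence of a call of the other 26 genes as they were. Role medians moved when centred for sensors (-0.12 to 0.13), chaperones (-0.37 to -0.12) and ERAD (-0.19 to 0.065), with the running median removed for chaperones (-0.10) and ERAD (0.025), and for ERAD with the mean (0.22), in which Derl3 stands at 2.52. The ATF4 and CHOP arm went from 0.17 to 0.42 when centred and to 0.39 with the mean, and the sensors' median turned to 0.072 with the running median removed, each by less than the median standard error of the group's genes. Centring shifts every gene alike, and the cause of the shift in abundant genes was not tested. Trib3, Chac1 and Derl3 have no value at a mean count of at least 50. No paired analysis was possible because the columns of values per library carry no sample label. For the same reason an edgeR fit and leaving out each replicate were not run. Both replicates are pools, so the p-values do not measure the spread between single mice, and the centred p-values take the shift as exact.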
